A study of Mus musculus with 9 samples.

Results

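The interferon-inducible GTPases described here are 10 mouse genes, 6 guanylate-binding proteins (Gbp2, Gbp2b, Gbp3, Gbp4, Gbp7 and Gbp9) and 4 immunity-related GTPases (Irgm1, Irgm2, Igtp and Iigp1). They are 10 of the 55335 genes counted in each library, and were found by matching the Ensembl identifiers of the count files to the listed symbols. The list was drawn up with the levels of these genes in the same libraries known, so they were chosen by their differences between each hairpin and the control, which are given as a description, with no test. RNA was sequenced from 9 libraries of D2A1-d, a murine breast carcinoma line kept in medium with serum. The cells were transduced with 1 of 3 hairpins, with 3 biological replicates each: shMed1 #2 and shMed1 #4, short hairpin RNAs against Med1 (genotype Med1 knockdown), and NTC, a non-targeting control (genotype WT). All 3 groups carry a transduced hairpin, none received a further treatment, and no interferon is named in the labels. The labels do not say whether the replicates of a hairpin came from separate transductions, so p-values measure the spread between these libraries, which may be technical.

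Guanylate-binding proteins are large GTPases of the dynamin superfamily. They assemble on the membranes of intracellular pathogens and pathogen vacuoles, and several carry a lipid anchor added by prenylation. Immunity-related GTPases are smaller, and in mice fall into regulators bound to the cell's own membranes (Irgm1, Irgm2 and Igtp, also called Irgm3) and effectors such as Iigp1 that load onto pathogen vacuoles and that the regulators keep inactive elsewhere. Interferons induce both families through JAK kinases and STAT factors, which act at gamma-activated sites, while STAT2 with IRF9, or IRF1, act at interferon-stimulated response elements.

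The libraries held 8123918 to 8879982 counts, so that 3 counts correspond to 0.338 to 0.369 CPM (counts relative to the library total) and most of these GTPases were measured with few reads. Med1, the hairpins' target and a subunit of the Mediator complex, had 22.0, 25.1 and 24.6 CPM in the shMed1 #2 libraries and 25.0, 26.5 and 25.5 CPM in the shMed1 #4 libraries, against 85.4, 87.3 and 79.6 CPM in the NTC libraries. Its log2 fold change against NTC was -1.81 ± 0.075 with shMed1 #2 and -1.71 ± 0.074 with shMed1 #4 (standard error; edgeR quasi-likelihood test, adjusted p = 5.67e-36 and 6.39e-34). Med1 did not differ detectably between shMed1 #4 and shMed1 #2 (log2 fold change 0.10 ± 0.090, adjusted p = 0.461). Of the labelled cell type's epithelial markers, Epcam was at 0 in all 9 libraries and Cdh1 had at most 3 counts in any library, while the keratin genes Krt8 and Krt18 and the mesenchymal Vim were detected. These differed between groups as well. Krt8 averaged 1.92 ± 0.54 CPM with shMed1 #2 and 3.47 ± 0.83 CPM with shMed1 #4, against 6.47 ± 0.80 CPM with NTC (SD, n = 3 each). Krt18 averaged 18.8 ± 1.41 CPM with shMed1 #2 and 43.6 ± 4.58 CPM with shMed1 #4, against 50.6 ± 0.38 CPM with NTC. Vim averaged 2772 ± 64.0 CPM with shMed1 #2 and 2438 ± 38.4 CPM with shMed1 #4, against 1868 ± 23.1 CPM with NTC. With shMed1 #2 against NTC, Krt8 and Krt18 fell and Vim rose (edgeR, adjusted p = 3.10e-09, 2.68e-25 and 8.01e-24). Their part in the GTPase levels was not tested.

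All 10 GTPases were lower with either Med1 hairpin than with NTC, and for each gene every hairpin library lay below every NTC library. Together they summed to 20.2, 15.9 and 19.0 CPM in the shMed1 #2 libraries and to 23.3, 22.9 and 23.5 CPM in the shMed1 #4 libraries, against 65.5, 66.6 and 84.1 CPM in the NTC libraries. In bulk RNA, fewer cells that express a gene and less RNA per cell cannot be told apart. Among all 13611 genes that passed the filter on low counts, 25.8% had every shMed1 #2 library below every NTC library and 19.6% every shMed1 #4 library below every NTC library. The filter asked for about 1.16 CPM in at least 3 libraries. It kept 8 of the 10 genes: Gbp2, Gbp2b, Gbp9 and Irgm1 reached that level in every library, whereas Gbp3, Gbp4, Irgm2 and Igtp reached it in all libraries of the NTC group alone and could pass only because they were high there. Gbp7 and Iigp1 did not pass. All 8 genes in the fit were called lower (edgeR, adjusted p under 0.05) with shMed1 #2, where 21.9% of tested genes were (43.7% called in either direction), and all 8 with shMed1 #4, where 14.1% were (28.2% in either direction); 10.1% of tested genes were called lower with both. Because these contrasts chose the genes and share the same 3 NTC libraries, nothing is read from those counts.

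**Figure D1:**
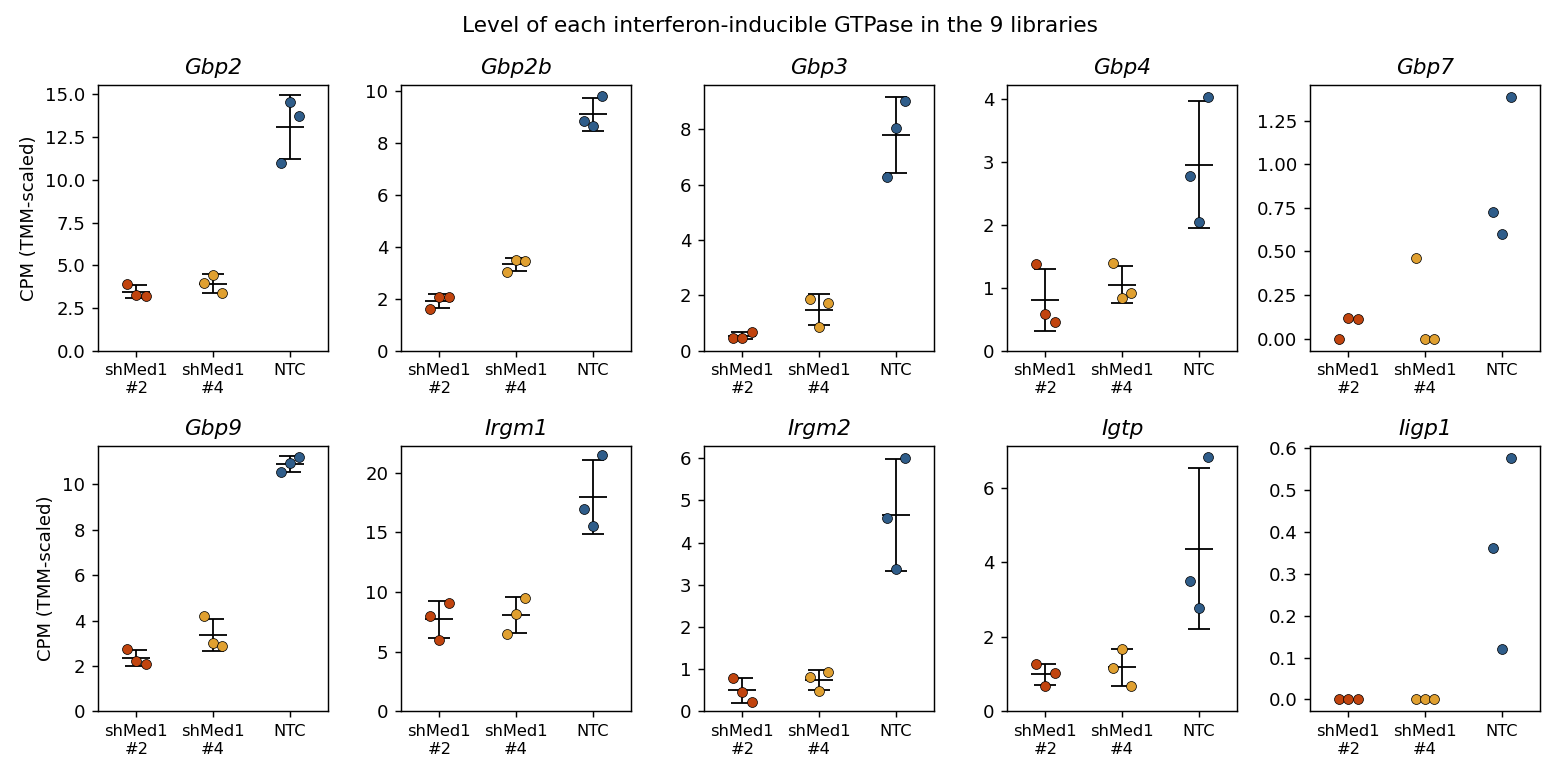
Level of each of the 10 GTPases in CPM (vertical axis, a separate linear scale for each gene) in the 3 libraries of shMed1 #2, shMed1 #4 and NTC. Points are libraries, and bars are the mean ± SD of 3 libraries except for Gbp7 and Iigp1, whose few counts are shown as points only; the NTC points lie above all hairpin points for every gene.

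RefSeq promoter windows ran from 250 bases before a transcript start to 50 after it (GRCm38.p6). Such windows were used for only 7 of the 10 genes: Gbp2, Gbp2b, Gbp3, Gbp7, Irgm1, Irgm2 and Igtp. Gbp4, Gbp9 and Iigp1 were left out of the search. Whether their promoters hold these letters was not tested, and the counts of GTPases below do not cover them. They were searched on both strands for the letters of the interferon-stimulated response element, GAAA and again GAAA with any pair of bases between them, and for TTCNNNGAA, the letters of the gamma-activated site. All 7 genes held the response element letters, against 3.99% of 27025 genes with a window, and 3 of them (Igtp, Irgm2 and Gbp7) held the gamma-activated site letters, against 9.55%. The 150 bases before the start are printed 5′ to 3′ on the gene's strand because they show where these letters sit, with the matched letters in capitals, so that TTTC, a pair of bases and TTTC are the response element read from the other strand. The stretches lie at chr3:142620513-142620662 (plus strand) for Gbp2, chr3:142594697-142594846 (plus) for Gbp2b, chr3:142559894-142560043 (plus) for Gbp3, chr3:142530186-142530335 (plus) for Gbp7, chr11:48871421-48871570 (minus) for Irgm1, chr11:58214827-58214976 (plus) for Irgm2 and chr11:58199406-58199555 (plus) for Igtp.
Gbp2: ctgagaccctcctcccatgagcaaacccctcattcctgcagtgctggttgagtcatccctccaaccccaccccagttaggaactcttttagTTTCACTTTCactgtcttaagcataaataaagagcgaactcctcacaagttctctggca
Gbp2b: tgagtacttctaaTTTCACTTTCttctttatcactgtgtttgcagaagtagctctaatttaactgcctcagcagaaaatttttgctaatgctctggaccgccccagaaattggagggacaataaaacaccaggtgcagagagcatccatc
Gbp3: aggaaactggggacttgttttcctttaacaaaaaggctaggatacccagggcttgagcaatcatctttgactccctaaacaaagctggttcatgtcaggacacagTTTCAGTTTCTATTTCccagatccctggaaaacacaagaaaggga
Gbp7: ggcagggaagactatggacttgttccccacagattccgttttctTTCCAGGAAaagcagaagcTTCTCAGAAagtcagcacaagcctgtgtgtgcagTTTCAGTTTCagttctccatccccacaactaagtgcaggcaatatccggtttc
Irgm1: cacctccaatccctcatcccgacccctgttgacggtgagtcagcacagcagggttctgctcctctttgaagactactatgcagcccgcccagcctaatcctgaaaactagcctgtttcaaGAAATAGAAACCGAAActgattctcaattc
Irgm2: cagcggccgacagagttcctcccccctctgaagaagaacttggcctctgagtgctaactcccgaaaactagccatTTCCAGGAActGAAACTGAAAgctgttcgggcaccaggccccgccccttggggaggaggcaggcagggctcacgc
Igtp: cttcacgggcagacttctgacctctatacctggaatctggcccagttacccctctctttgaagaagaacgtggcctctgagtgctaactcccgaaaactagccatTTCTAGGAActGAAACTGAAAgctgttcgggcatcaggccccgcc

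The response element letters lay close to the RefSeq start in Gbp2 (-59 to -50), Gbp7 (-53 to -44) and Igtp (-34 to -25). Here -1 is the base just before that start, which can differ from the start in the gene annotation used for positions below. In that annotation the printed Irgm1 and Irgm2 stretches and the Gbp2 match lie inside the genes, after their annotated starts. Gbp3 and Irgm1 each held a pair of overlapping copies, at -45 to -36 and -39 to -30 in Gbp3 and at -30 to -21 and -24 to -15 in Irgm1. The copy in Irgm2 lay at -64 to -55, and that in Gbp2b farther out, at -137 to -128. Gamma-activated site letters stood next to the response element in Irgm2 (-75 to -67) and Igtp (-45 to -37), and Gbp7 had a pair at -106 to -98 and -87 to -79. Igtp and Irgm2 are neighbours with closely similar promoters: over 120 aligned bases of the printed stretches, 103 matched (85.8%). The letters of the 2 motifs did not overlap each other in any of these windows. A second RefSeq window of Gbp3 held neither set of letters. Among 9460 tested genes with a window, 3.54% held the response element letters, against 5.12% of the 1035 of them called lower with both hairpins and 4.57% of the 1029 that remain without the GTPases. For the gamma-activated site letters the shares were 8.03% of all, 7.25% of those called lower with both and 7.09% without the GTPases. A match is a run of letters and was not tested as a binding site.

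**Figure D2:**
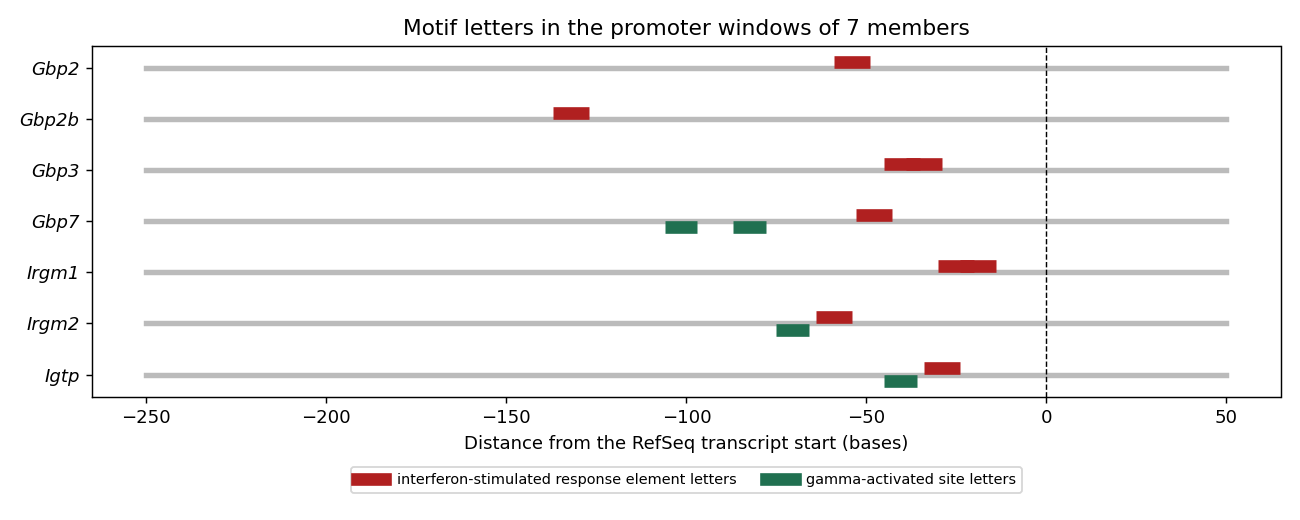
Position of interferon-stimulated response element letters (red, above the line) and gamma-activated site letters (green, below the line) in the RefSeq promoter windows of 7 GTPases, in bases from the transcript start (dashed line). Gbp3 is drawn for the window that holds a match; all 7 genes have response element letters in the 150 bases before the start.

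Gbp2, Gbp2b, Gbp3 and Gbp7 lie side by side on the plus strand of chromosome 3 (GRCm38). Gbp2, among the best studied mouse guanylate-binding proteins in defence against Toxoplasma, had 3.90, 3.24 and 3.22 CPM with shMed1 #2 and 3.95, 4.44 and 3.35 CPM with shMed1 #4, against 11.0, 14.6 and 13.8 CPM with NTC. Its log2 fold change against NTC was -1.92 ± 0.18 with shMed1 #2 and -1.74 ± 0.17 with shMed1 #4 (edgeR fit, standard error, here and for the genes that follow). Gbp2 spans chr3:142620602-142638008. The hairpin libraries of Gbp2 overlapped each other and stayed well apart from the NTC libraries. Gbp2b, called Gbp1 in older mouse work, lies just upstream at chr3:142594847-142619179. Gbp2b had 1.61, 2.09 and 2.07 CPM with shMed1 #2 and 3.02, 3.48 and 3.47 CPM with shMed1 #4, against 8.83, 8.66 and 9.82 CPM with NTC. Here the groups formed 3 separate steps, with every shMed1 #4 library between the shMed1 #2 and the NTC libraries. The log2 fold change of Gbp2b against NTC was -2.24 ± 0.22 with shMed1 #2 and -1.45 ± 0.19 with shMed1 #4.

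Gbp3 (chr3:142560026-142573209) had the largest fold change against NTC with shMed1 #2 among the 8 genes in the fit. It had 0.459, 0.464 and 0.690 CPM with shMed1 #2 and 1.86, 0.841 and 1.74 CPM with shMed1 #4, against 6.29, 8.06 and 9.01 CPM with NTC. The shMed1 #2 libraries held 14 counts of Gbp3 in all and the shMed1 #4 libraries 38, against 197 in the NTC libraries. The log2 fold change of Gbp3 against NTC was -3.82 ± 0.31 with shMed1 #2 and -2.38 ± 0.25 with shMed1 #4. Gbp7, linked in mice to oxidative host defence, lies next to Gbp3 at chr3:142530342-142550149 and was close to the limit of detection. Its counts were 0, 1 and 1 in the shMed1 #2 libraries and 4, 0 and 0 in the shMed1 #4 libraries, against 6, 5 and 12 in the NTC libraries. The summed level of Gbp7 in NTC over that in shMed1 #2 was 12.3 (exact 95% interval 3.03 to 107, counting error only), and over that in shMed1 #4 it was 5.93 (2.03 to 23.6). Of the 50-base stretches of Gbp7 transcripts, 12.7% also occur in other genes, most of them in the pseudogene Gm43802 and the rest mainly in Gbp3, so the few Gbp7 counts are uncertain.

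Gbp4 and Gbp9 overlap on the minus strand of chromosome 5, at chr5:105115767-105139586 and chr5:105077630-105139539. Gbp9 had 2.75, 2.20 and 2.07 CPM with shMed1 #2 and 4.18, 3.00 and 2.89 CPM with shMed1 #4, against 10.5, 10.9 and 11.2 CPM with NTC. Like Gbp2b, Gbp9 showed 3 groups of libraries that did not overlap, with shMed1 #4 in the middle. The fold change of Gbp9 against NTC, on the log2 scale, was -2.21 ± 0.20 with shMed1 #2 and -1.69 ± 0.19 with shMed1 #4. Gbp4 was the lowest guanylate-binding protein of the fit in NTC, with 1.38, 0.579 and 0.460 CPM with shMed1 #2 and 1.39, 0.841 and 0.925 CPM with shMed1 #4, against 2.78, 2.04 and 4.04 CPM with NTC. For Gbp4 the log2 fold change was -1.86 ± 0.37 with shMed1 #2 and -1.48 ± 0.35 with shMed1 #4. The value with shMed1 #2 rests in part on replicate 1 of that hairpin, the highest of its group, and without that library it was -2.48. Of their 50-base transcript stretches, 7.78% of Gbp4 and 8.05% of Gbp9 recur in other genes, chiefly guanylate-binding proteins.

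The immunity-related GTPases were lower with the hairpins by less in Irgm1 and by more in Irgm2. Irgm1 (chr11:48861968-48871683, minus strand), a regulator required in mice for control of intracellular bacteria, was the most abundant of all 10 genes in CPM. It had 8.03, 6.03 and 9.09 CPM with shMed1 #2 and 6.50, 8.17 and 9.49 CPM with shMed1 #4, against 16.9, 15.5 and 21.5 CPM with NTC. Its log2 fold change against NTC was -1.22 ± 0.14 with shMed1 #2 and -1.16 ± 0.14 with shMed1 #4, the smallest of the 8 genes in either contrast. A log2 fold change of -1 or below was found in 3.84% of tested genes with shMed1 #2 and in 1.76% with shMed1 #4. The libraries of both hairpins overlapped widely for Irgm1.

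Irgm2 (chr11:58199618-58222782) and Igtp (chr11:58199556-58207591) overlap in the annotation on the plus strand and share exon sequence. Irgm2 had 0.803, 0.464 and 0.230 CPM with shMed1 #2 and 0.813, 0.480 and 0.925 CPM with shMed1 #4, against 4.60, 3.37 and 6.01 CPM with NTC. Its log2 fold change against NTC was -3.19 ± 0.37 with shMed1 #2 and -2.63 ± 0.34 with shMed1 #4, the largest with that hairpin. Igtp had 1.26, 0.695 and 1.04 CPM with shMed1 #2 and 1.16, 1.68 and 0.694 CPM with shMed1 #4, against 3.51, 2.77 and 6.82 CPM with NTC. For Igtp the log2 fold change was -2.12 ± 0.34 with shMed1 #2 and -1.89 ± 0.33 with shMed1 #4. The annotated exons overlap over 162 bases, which is 8.01% of the Igtp exon length, and 11.8% of the 50-base stretches of Igtp occur in Irgm2, so reads there cannot be assigned to one of the pair. Iigp1, the effector on chromosome 18, had 0 counts in all 6 hairpin libraries, against 3, 1 and 5 counts with NTC. For Iigp1, 3 counts were put in place of each hairpin total of 0, and the 9 NTC counts were taken as exact. The level in NTC was then 3.20 times that with shMed1 #2 and 3.09 times that with shMed1 #4. These ratios are not lower bounds, because the counting error in NTC and the spread between libraries are left out.

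**Figure D3:**
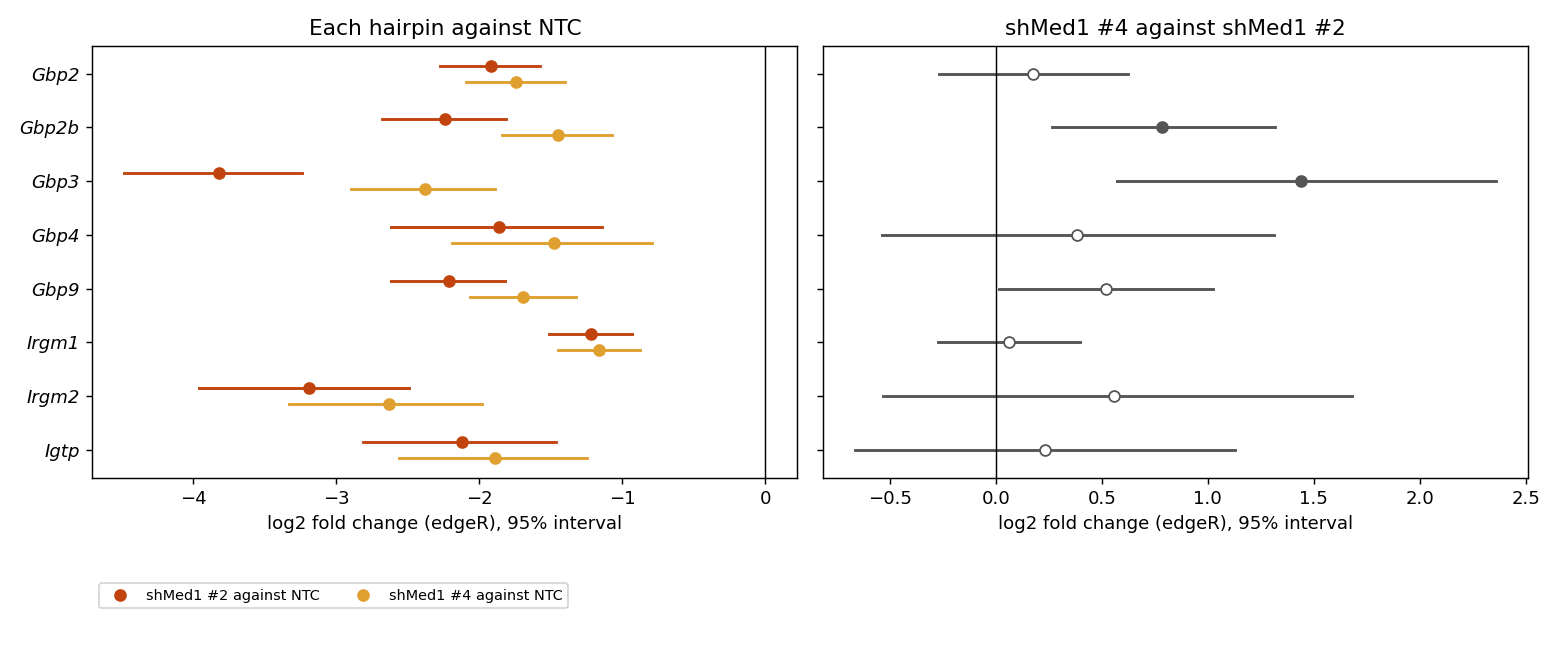
Log2 fold change (horizontal axis) of the 8 GTPases in the edgeR fit, with 95% intervals, for each hairpin against NTC on the left and for shMed1 #4 against shMed1 #2 on the right. Filled points on the right passed an adjusted p of 0.05: Gbp2b at 0.79 and Gbp3 at 1.44.

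The contrast between the hairpins was tested. The genes were chosen by each hairpin's difference from NTC in the same hairpin libraries, so this contrast is not fully independent of the choice. Gbp2b and Gbp3 were higher with shMed1 #4 than with shMed1 #2, and the other 6 tested genes did not pass the threshold in either direction, with Gbp9 at an unadjusted p of 0.043 as the only one of them under 0.05. The log2 fold change of Gbp2b was 0.79 (95% interval 0.26 to 1.32, edgeR quasi-likelihood test, adjusted p = 0.019), and its 3 shMed1 #4 libraries lay above its 3 shMed1 #2 libraries. For Gbp3 it was 1.44 (0.57 to 2.36, adjusted p = 0.00955), also with no overlap, but Gbp3 entered the fit only through its NTC level. With the filter applied to the compared hairpins alone, 5 of the GTPases were tested and Gbp3 was not among them. These are 2 of 8 genes called higher, where 12.9% of all tested genes were called higher and 13.1% lower. The Gbp2b call did not hold in DESeq2 (adjusted p = 0.0736), without shMed1 #2 replicate 1 (0.0872) or without shMed1 #4 replicate 3 (0.0551), and the Gbp3 call did not hold without shMed1 #4 replicate 1 (0.0639).

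Gbp9 also had every shMed1 #4 library above every shMed1 #2 library, which 18.9% of all tested genes had, but its log2 fold change of 0.52 (95% interval 0.017 to 1.03) missed the threshold in edgeR (adjusted p = 0.124). The other 5 genes had overlapping libraries and intervals that included 0. For Gbp2 the log2 fold change was 0.18 (-0.27 to 0.62), and for Gbp4 it was 0.38 (-0.54 to 1.31), or 1.00 without shMed1 #2 replicate 1. Among the immunity-related GTPases it was 0.061 (-0.27 to 0.40) for Irgm1, 0.56 (-0.53 to 1.68) for Irgm2 and 0.23 (-0.66 to 1.13) for Igtp. The intervals of Gbp4, Irgm2 and Igtp hold a difference as large as that of Gbp2b, which could not be told from 0 for them at this depth. All 8 estimates were above 0 with a median of 0.45, where the median over all tested genes was 0.0083. Those of Irgm1 and Igtp changed sign when 1 library was left out. Unlike all tested genes, these 8 were chosen by their differences between the hairpins and NTC. Of them, 4 passed the filter only through NTC, so nothing is read from the shared sign. In summed CPM the guanylate-binding proteins reached 14.9, 12.6 and 12.4 with shMed1 #4 and 10.1, 8.69 and 8.63 with shMed1 #2, with no overlap. The immunity-related GTPases summed to 8.48, 10.3 and 11.1 with shMed1 #4 and 10.1, 7.18 and 10.4 with shMed1 #2, and these overlapped.

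Within the NTC group, replicate 3 was the highest library for 9 of the 10 genes, all except Gbp2, whereas it was the highest NTC library for 34.7% of tested genes. Relative to the mean of NTC replicates 1 and 2, replicate 3 was 1.04 times as high for Gbp9, 2.17 times for Igtp and 2.39 times for Iigp1, the last with 5 counts. The immunity-related GTPases carried more of this difference than the guanylate-binding proteins: their sum was 34.9 CPM in NTC replicate 3, against 25.4 CPM in replicate 1 and 21.8 CPM in replicate 2, where the guanylate-binding proteins summed to 49.2 CPM in replicate 3, 40.2 CPM in replicate 1 and 44.9 CPM in replicate 2. Without NTC replicate 3, the log2 fold change with shMed1 #2 was -1.64 for Igtp, against -2.12 with all libraries. It was -1.56 for Gbp4 (against -1.86), -1.07 for Irgm1 (against -1.22) and -2.19 for Gbp9 (against -2.21). Among the hairpin libraries, the one most often highest in its group was shMed1 #2 replicate 1, for 5 genes, against 33.6% of tested genes. Some of these rest on few counts, such as Irgm2 with 7, 4 and 2 in the shMed1 #2 libraries. Iigp1 had 0 counts in every hairpin library.

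**Figure D4:**
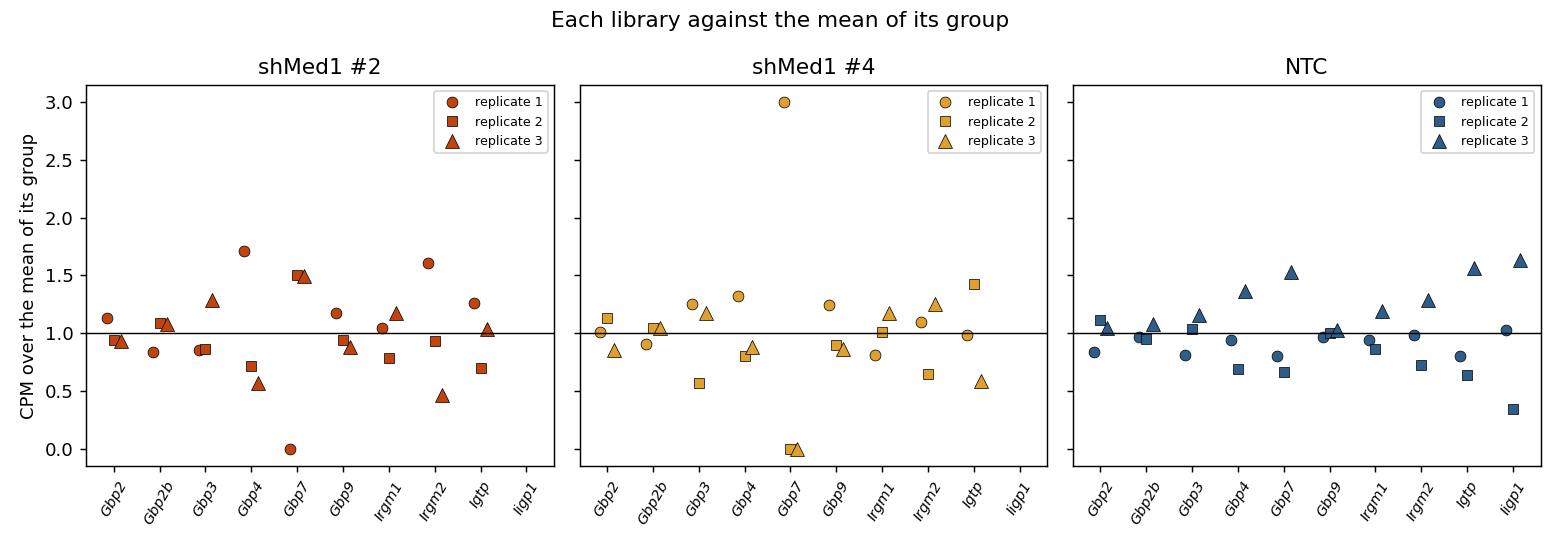
CPM of each library divided by the mean of its group (vertical axis) for the 10 GTPases, in panels for shMed1 #2, shMed1 #4 and NTC. In the NTC panel the triangles of replicate 3 are the highest points for 9 of 10 genes; Iigp1 has no points in the hairpin panels because all its counts there are 0.

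To set the genes beside each other, CPM was divided by exon length in kilobases. Gbp2 was the highest in all 3 groups, at 1.37 ± 0.15 CPM per kb with shMed1 #2 and 1.56 ± 0.22 CPM per kb with shMed1 #4, against 5.21 ± 0.74 CPM per kb with NTC (SD, n = 3 libraries each). In NTC the next 5 ran from Gbp2b (3.22 ± 0.22 CPM per kb) through Irgm1 (3.09), Gbp3 (2.38) and Igtp (2.16) to Gbp9 (2.11), and the ranges of neighbours in that order overlapped. Irgm2 (1.26 CPM per kb), Gbp4 (0.395), Gbp7 (0.161) and Iigp1 (0.0607) followed in NTC, with ranges that did not overlap from one to the next. Irgm1 stood at the second place with both hairpins, at 1.33 CPM per kb with shMed1 #2 and 1.39 CPM per kb with shMed1 #4, and its range overlapped that of Gbp2 in each. Gbp3 was in 6th place with both hairpins, at 0.165 CPM per kb with shMed1 #2 and 0.453 CPM per kb with shMed1 #4, against 4th place with NTC.

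Most other members of both families had few or no reads in this line. Of 31 further names of guanylate-binding proteins and immunity-related GTPases, 23 were in the files. Of these, 7 had 0 counts in every library, 15 had at most 20 counts in any library, and 1 was tested. This was Irgq, a distant relative that averaged 23.0 ± 2.69 CPM with shMed1 #2 and 24.0 ± 1.30 CPM with shMed1 #4, against 25.8 ± 1.12 CPM with NTC (SD, n = 3 each), above each of the 10 GTPases in CPM. It had log2 fold changes of -0.17 with shMed1 #2 (edgeR adjusted p = 0.167) and -0.10 with shMed1 #4 (0.465). Gbp5, known in mice as a partner of inflammasome assembly, had 0 counts in the 3 shMed1 #2 libraries and 0, 1 and 1 in the shMed1 #4 libraries, against 6, 3 and 1 in the NTC libraries. Ifi47, an immunity-related GTPase on chromosome 11 that is not in the list and was named after its values were seen, had counts of 9, 6 and 9 in the shMed1 #2 libraries and 5, 7 and 11 in the shMed1 #4 libraries, against 30, 26 and 16 in the NTC libraries. Its libraries also did not overlap between hairpin and NTC, and unlike most of the listed genes it was lowest in NTC replicate 3. The log2 fold change of Ifi47 against NTC was -1.62 ± 0.36 with shMed1 #2 and -1.65 ± 0.36 with shMed1 #4, given with no test because its values chose it and because it reached the filter on low counts in all libraries of NTC alone. Between shMed1 #4 and shMed1 #2 its log2 fold change was -0.035 ± 0.46.

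Counts of called genes in the lists that follow stand beside 21.9% of all tested genes called lower and 21.8% higher with shMed1 #2, and 14.1% lower and 14.0% higher with shMed1 #4. Of 19 interferon receptor, JAK, STAT and IRF genes, 18 were tested; 11 fell and 1 rose with shMed1 #2 against NTC, and 7 fell and 1 rose with shMed1 #4. The median log2 fold change was -0.40 with shMed1 #2 and -0.16 with shMed1 #4, where the medians over all tested genes were -0.0035 and 0.0009. Irf9 and Stat2, whose products act together at response elements, had log2 fold changes of -1.23 (Irf9) and -1.19 (Stat2) in the shMed1 #2 contrast, against -1.26 (Irf9) and -0.74 (Stat2) in the shMed1 #4 contrast. Irf7, a factor of the type I interferon response, fell by 2.36 with shMed1 #2 and by 1.73 with shMed1 #4, and without shMed1 #4 replicate 3 the log2 fold change with that hairpin was -2.47. Irf7 averaged 0.577 CPM with shMed1 #2 and 0.896 CPM with shMed1 #4, against 3.00 CPM with NTC. Both hairpin means lay below the filter level of about 1.16 CPM. Ifnar2, a chain of the type I interferon receptor, fell by 0.66 with shMed1 #2 and by 0.50 with shMed1 #4.

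Irf1 and Nlrc5 were named after their values were seen, so these are given with standard errors and no test. Their log2 fold changes between the hairpins had opposite signs. Irf1, an activator of many guanylate-binding protein genes, had a log2 fold change against NTC of -0.52 ± 0.077 with shMed1 #2. With shMed1 #4 it was -0.12 ± 0.073, and for shMed1 #4 against shMed1 #2 it was 0.40 ± 0.077. Nlrc5, the activator of class I histocompatibility genes, had a log2 fold change against NTC of -1.25 ± 0.11 with shMed1 #4. With shMed1 #2 it was -0.13 ± 0.093, and for shMed1 #4 against shMed1 #2 it was -1.11 ± 0.11.

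Of 14 ubiquitin, inflammasome and pyroptosis genes 9 were tested; 4 fell and 1 rose with shMed1 #2, and 7 fell with shMed1 #4. Aim2, a sensor of cytosolic DNA that acts downstream of guanylate-binding proteins during Francisella infection in mice, fell by 3.20 with shMed1 #2 and by 2.53 with shMed1 #4, and without shMed1 #2 replicate 3 the log2 fold change with that hairpin was -3.85. Aim2 had 12 counts in all with shMed1 #2 and 19 with shMed1 #4, against 110 with NTC. It reached the filter on low counts in all libraries of NTC alone. Gsdmd, which forms the pore of pyroptosis, averaged 1.42 ± 0.53 CPM with shMed1 #2 and 3.63 ± 0.59 CPM with shMed1 #4, against 10.7 ± 0.70 CPM with NTC (SD, n = 3 each). Gsdmd was higher with shMed1 #4 than with shMed1 #2 (log2 fold change 1.35 ± 0.28, edgeR adjusted p = 0.000107). Of 16 genes listed for autophagy conjugation, some of whose products help load GTPases onto vacuoles, 5 fell and 4 rose with shMed1 #2. With shMed1 #4, 4 fell and 1 rose. Over all tested genes, 43.7% were called in either direction with shMed1 #2 and 28.2% with shMed1 #4. Sqstm1, a cargo receptor, fell by 0.39 with shMed1 #2 and by 0.56 with shMed1 #4. Atg16l1 rose by 0.28 with shMed1 #2 and by 0.18 with shMed1 #4, the second not past the threshold in DESeq2 (adjusted p = 0.116).

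Of 16 dynamin superfamily relatives 12 were tested; 1 fell and 7 rose with each hairpin against NTC, where 21.8% of all tested genes rose with shMed1 #2 and 14.0% with shMed1 #4. The one that fell was Dnm1, an endocytic dynamin, by 1.24 with shMed1 #2 and by 0.60 with shMed1 #4. Atl2, which fuses endoplasmic reticulum tubules, rose by 0.69 with shMed1 #2 and by 0.58 with shMed1 #4. Mx1 and Mx2, named after their values were seen, did not pass the filter on low counts and are not in these counts. Mx2 averaged 0.077 CPM with shMed1 #2 and 0 CPM with shMed1 #4, against 1.14 CPM with NTC. Mx1 averaged 0 CPM with shMed1 #2 and 0.040 CPM with shMed1 #4, against 0.39 CPM with NTC. Of 8 prenylation enzymes, 1 fell and 2 rose with shMed1 #2, and 1 rose with shMed1 #4, no larger a share than over all tested genes. The riser in both was Pggt1b, a subunit of the geranylgeranyl transferase that adds the anchor of Gbp2, by 0.38 with shMed1 #2 and by 0.19 with shMed1 #4, the second not past the threshold without shMed1 #4 replicate 2 (edgeR adjusted p = 0.0572).

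Within 250000 bases of the start of one of the 10 GTPases lie the starts of 27 genes of other families. Of the 18 that were tested, 1 was called lower and 5 higher with shMed1 #2, and 1 lower and 2 higher with shMed1 #4, a smaller share than the 43.7% and 28.2% of all tested genes called in either direction. The lower one was Kyat3, a kynurenine aminotransferase gene on chromosome 3 that starts 80449 bases from Gbp2. Kyat3 averaged 4.53 CPM with shMed1 #2 and 5.35 CPM with shMed1 #4, against 10.3 CPM with NTC, with log2 fold changes of -1.18 and -0.94 (edgeR quasi-likelihood test, adjusted p = 1.69e-08 and 4.50e-06). Smim3, which starts 125960 bases from Iigp1, rose by 0.79 with shMed1 #2 and by 0.51 with shMed1 #4.

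Lcn2, Apol9b, Gdpd5, Sort1 and Cdkn2b were the 5 genes whose pattern over the 9 libraries was closest to the mean pattern of the tested GTPases, among 12421 genes compared by the root mean square difference in centred log2 CPM. Lcn2, which encodes a siderophore-binding lipocalin, differed from that mean by 0.19, where the median over the genes compared was 0.94. It averaged 44.7 ± 1.51 CPM with shMed1 #2 and 58.5 ± 6.94 CPM with shMed1 #4, against 186 ± 13.4 CPM with NTC (SD, n = 3 each). Apol9b, of the apolipoprotein L family, averaged 5.03 CPM with shMed1 #2 and 7.15 CPM with shMed1 #4, against 18.1 CPM with NTC. Gdpd5, a phosphodiesterase gene, Sort1, which encodes a sorting receptor, and Cdkn2b, an inhibitor of cell-cycle kinases, differed from the mean pattern by 0.20, 0.21 and 0.21. All 5 were picked by this distance, so their small distances and their lower levels with the hairpins restate the choice. The tested GTPases themselves differed from their mean by 0.14 for Gbp9 to 0.59 for Gbp3.

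Markers of leukocytes, which express these GTPases, were measured in the same libraries. The defining markers Cd3e, Ms4a1, Itgam, Adgre1 and Tyrobp were at 0 in all 9 libraries, and Ptprc, Nkg7 and Fcgr3 had at most 3 counts in any. Other markers of the list were detected: Csf1r averaged 12.3 CPM with shMed1 #2 and 12.2 CPM with shMed1 #4, against 14.5 CPM with NTC, and Cd68 averaged 2.42 CPM with shMed1 #2 and 2.58 CPM with shMed1 #4, against 2.45 CPM with NTC. These lie within the range of the GTPases. The 15 leukocyte markers summed to 56.7 to 60.1 CPM with shMed1 #2 and 66.1 to 74.6 CPM with shMed1 #4, against 76.8 to 89.8 CPM with NTC. Most of that sum was Cd14, at 42.8 ± 2.56 CPM with shMed1 #2 and 55.0 ± 3.16 CPM with shMed1 #4, against 62.8 ± 5.31 CPM with NTC (SD, n = 3 each). The part of these genes in the GTPase levels was not tested.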

How the data were processed

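The authors deposited whole-number read counts per gene, 1 file per library, from total RNA run on a BGISEQ-500, per the labels' protocols. STAR, HTSeq and GRCm38 (mm10) are named per the submitters' processing notes; their versions, the strand setting and the annotation release were not given in the sources used here. Reads of near-identical or overlapping genes cannot be separated in such counts. Symbols and positions come from GENCODE M21, which matched 55154 of 55335 identifiers, and promoters from RefSeq. Counts were filtered by filterByExpr (minimum count 10), scaled by TMM (factors 0.982 to 1.02) and tested with edgeR 4.0.16 (R 4.3.3) by the robust quasi-likelihood fit over all 9 libraries, with Benjamini-Hochberg adjustment over 13611 genes and a threshold of 0.05; CPM values use the scaled totals. Intervals of summed counts are exact, at 95%, and cover counting error only. The genes, lists and tests were chosen with earlier results of these data known; single genes of the lists are not reported here by name where they are withheld. Named genes outside the list are mainly the called genes with the largest fold changes in each list and among the neighbours. The 5 closest patterns are named too. Alternatives were other scalings, filters, DESeq2 1.42.0, a replicate block, a fit of the compared groups alone and leaving out each library.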

Additional observations from a re-analysis of the deposited data

Results flagged for a closer look

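The edgeR contrast between the hairpins passed the threshold for Gbp2b and Gbp3, whose levels with shMed1 #4 lay between those with shMed1 #2 and NTC. The log2 fold change of shMed1 #4 against shMed1 #2 was 0.79 for Gbp2b and 1.44 for Gbp3. Gbp3 rests on 38 counts with shMed1 #4 and 14 with shMed1 #2 and was kept by the filter on low counts only through its NTC libraries.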

How the results depend on the processing

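Of 414 fold changes of the GTPases under the alternatives, 407 kept their direction and their side of the threshold, 4 lost a call and 3 changed sign. Nothing is read from calls against NTC that held, since those contrasts chose the genes. The count of GTPases called lower was 3 with shMed1 #2 and 3 with shMed1 #4 under a filter of 10 CPM, which left only 3 of them in the fit, and 0 were then called higher with shMed1 #4 against shMed1 #2. In that contrast 1 GTPase was called with only the groups compared, where 5 were tested and Gbp3 was filtered out, 1 in DESeq2, and 1 to 2 when leaving out 1 library. DESeq2 called 2351 genes there, against 3540 in edgeR. The sign of that contrast turned for Irgm1 (-0.088 without shMed1 #2 replicate 2, -0.077 without shMed1 #4 replicate 3; -0.088 to 0.19 over all libraries left out in turn) and for Igtp (-0.11 without shMed1 #4 replicate 2; -0.11 to 0.50 in turn). A filter at a mean of 1 CPM, chosen after seeing the data, changed no call of a GTPase. Libraries of the same number in different groups did not deviate together (correlations -0.041 to 0.042), so the numbers were not taken as pairs; with the replicate block 5892, 3786 and 3461 genes were called for shMed1 #2 against NTC, shMed1 #4 against NTC and shMed1 #4 against shMed1 #2, and no GTPase call changed. Few reads limit Gbp3, Gbp4, Irgm2 and Igtp with the hairpins, and Gbp7 and Iigp1 throughout.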
